A study of Homo sapiens with 6 samples.

Results

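Tissue factor and thrombin receptor genes were examined in MDA-MB-231, an established human breast cancer cell line of mesenchymal, triple-negative type. The set held 9 genes chosen by name, and all 9 had a row among the 28979 gene IDs of the count tables: F3, TFPI, TFPI2, THBD, PROCR, F2R, F2RL1, F2RL2 and SERPINE2. Of these, 8 passed the filter on low counts and were tested among 14547 genes. F2RL2 did not pass, with 1 count over all libraries. The assay was RNA sequencing of 6 poly-A selected libraries, 3 labelled Con and 3 labelled Ang, all of MDA-MB-231 cells. The series design describes breast cancer cells given exosomes, small vesicles shed by cells, of normal or of hypertrophic cardiomyocytes, and looks for genes targeted by microRNAs. No label ties Con or Ang to either kind of vesicle, gives a dose or time, or names separate cultures or days. The spread behind each p-value is that between these 6 libraries and could be technical alone.

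Tissue factor, the product of F3, is a membrane protein that binds coagulation factor VIIa and starts the clotting cascade, which ends in thrombin. Thrombin and the upstream proteases also act on cells by cutting protease-activated receptors (PARs), G protein-coupled receptors whose new amino terminus serves as their own ligand. F2R, F2RL1 and F2RL2 encode PAR1, PAR2 and PAR3. TFPI, TFPI2 and SERPINE2 encode inhibitors of these proteases, while thrombomodulin (THBD) and the endothelial protein C receptor (PROCR) turn thrombin toward protein C activation. Tissue factor is known to be abundant on invasive breast cancer cells, where it feeds PAR2 signalling as well as clotting.

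Total counts ran from 3369212 to 5437190 per library, so that a count of 0 allows up to 3 counts, or 0.552 to 0.890 CPM (counts scaled to a common library size), at the 95% level for counting error only. MDA-MB-231 markers were present, with 8 of 9 listed genes tested, among them VIM, with mean levels of 928 (Con) and 1032 CPM (Ang), whereas SPARC had 4 and 2 counts. Of 7 luminal markers 3 were tested, ERBB2 at a mean of 105 CPM, EPCAM at 9.80 CPM and GATA3 at 3.91 CPM, and the list summed to 113 to 141 CPM in Con and 100.2 to 133 CPM in Ang. ESR1 and PGR, the hormone receptor genes, had 7 counts or fewer over all libraries. The endothelial markers VWF and TEK, the cardiomyocyte markers MYH6, MYL2 and RYR2 and the monocyte marker CD14 had between 1 and 24 counts each over all libraries. Of 7 endothelial, 7 cardiomyocyte and 2 platelet or leukocyte markers with a row in the tables, 3, 1 and 1 were tested. The tested ones were higher: PECAM1, KDR and ESAM had means of 7.56, 6.90 and 12.05 CPM over all libraries. The cardiomyocyte marker NPPA had a mean of 9.51 CPM and the platelet marker ITGA2B 2.78 CPM. Summed over the markers with a row, endothelial levels were 24.7 to 38.4 CPM in Con and 22.9 to 29.5 CPM in Ang. The sums were 7.39 to 19.2 and 7.82 to 13.9 CPM for cardiomyocyte markers, and 0 to 4.22 and 4.03 to 6.64 CPM for platelet and leukocyte markers. Their part in the results below was not tested.

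One feature of the counts bears on every level given here. Over 250 pairs of a noncoding gene lying under a protein-coding gene of the other strand, the noncoding gene had a median of 32.5 times the counts per base of the coding gene. By library the median was 39.3, 23.2 and 41.1 in Con replicates 1 to 3 and 32.9 to 35.4 in the Ang libraries, so that Con replicate 2 stood apart. The counts of the genes below are therefore uncertain as measures of their own RNA. This holds also for F3, THBD, F2RL1 and SERPINE2, which share no exon bases with an annotated gene of either strand.

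F3 dominated the set. This gene lies on chromosome 1 (94529225 to 94541800, minus strand, GRCh38) with 7 separate exon blocks, and it ranked at position 136 of the 14547 tested genes by mean level. It took 74.0% to 77.4% of all counts of the 9 genes in each library. F3 had 681, 776 and 667 CPM in Con replicates 1 to 3, and 766, 743 and 736 CPM in Ang replicates 1 to 3. Con replicate 2 was the highest library and Con replicate 3 the lowest, and the groups overlapped. Means were 708 ± 59.3 CPM for Con and 748 ± 15.4 CPM for Ang (SD, n = 3 each). The log2 fold change, Ang minus Con, was 0.08 ± 0.17 (SE), with a 95% interval of -0.26 to 0.42 and an adjusted p of 0.999 by edgeR's quasi-likelihood test. On the linear scale the interval ran from 0.835-fold to 1.34-fold. In these bulk libraries fewer cells expressing a gene and less RNA per cell cannot be told apart.

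Because F3 was the most abundant and F2RL2 the least abundant gene, the 250 bases before the start of each are shown (RefSeq, GRCh38.p14, F3 at chr1:94541760-94542009 and F2RL2 at chr5:76623404-76623653, both minus strand, written 5′ to 3′). Capitals mark matches, on either strand, to the AP-1 motif (TGAGTCA), the GC box that Sp1 binds (its letters are GGGCGG), the TATA box (searched as TATAAA) and GGAGTTTCC, the form of the kappaB site known from F3.
F3: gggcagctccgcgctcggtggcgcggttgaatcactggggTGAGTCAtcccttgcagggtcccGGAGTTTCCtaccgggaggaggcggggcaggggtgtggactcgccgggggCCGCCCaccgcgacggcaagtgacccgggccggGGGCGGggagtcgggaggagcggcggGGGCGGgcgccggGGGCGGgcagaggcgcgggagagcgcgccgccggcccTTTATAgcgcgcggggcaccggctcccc
F2RL2: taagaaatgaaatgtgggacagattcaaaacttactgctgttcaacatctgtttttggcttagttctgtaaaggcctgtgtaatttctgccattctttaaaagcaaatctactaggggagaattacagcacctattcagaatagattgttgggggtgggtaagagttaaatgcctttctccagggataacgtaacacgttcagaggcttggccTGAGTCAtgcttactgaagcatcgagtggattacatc

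The F3 window held 1 AP-1 match, 4 GC boxes, 1 TATA match and 1 kappaB-like match at a GC content of 78.0%. It also held 1 match to the EGR1 motif (GCGGGGGCG or GCGTGGGCG), which overlaps a GC box. The F2RL2 window held 1 AP-1 match and none of the others, at a GC content of 40.8%. Among 35116 RefSeq windows of the same length, 4.2% held the AP-1 motif, 42.6% a GC box, 10.7% the TATA motif, 5.37% the EGR1 motif and 0.424% GGAGTTTCC. Since GGAGTTTCC was chosen as the site known from F3, its match in F3 was fixed in advance and is no result. The AP-1, GC box and EGR1 motifs belong to factors known at the F3 promoter. Their matches in F3 could be foreseen too, and cannot be compared with the other windows. GC boxes were also matched 2 times each upstream of F2RL1, TFPI2 and PROCR, 1 and 2 times upstream of the 2 SERPINE2 starts and 0 times upstream of TFPI. THBD and F2R had no window among those searched. TFPI2 also held 1 EGR1 match and PROCR 1 TATA match. These matches are descriptions of the letters and not evidence of binding. Their relation to the levels of F3 and F2RL2 was not tested. The AP-1, NF-kappaB, EGR1, Sp1 and HIF-1 factors named for F3 are taken up with the pathway lists below.

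Since microRNA targets were the study's aim, 3′ untranslated regions (the longest that GENCODE gives per gene) were searched for matches to bases 2 to 8 of 18 microRNAs, picked as heart-muscle or hypertrophy microRNAs, as regulators named for F3, or as abundant in most cells. F3 had 4 matches, as did TFPI2. Because some of the microRNAs were picked for F3, its number of matches cannot be compared with those of the other genes. The regions also differed in length, with 1235 bases for F3, 549 for PROCR, 755 for SERPINE2 and 2706 for TFPI. The mature sequences of the microRNAs matched in F3 are given 5′ to 3′ with the seed in capitals (RefSeq, GRCh38.p14). No seed is shared between them.
miR-19b-3p: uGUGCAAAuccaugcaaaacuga
miR-20a-5p: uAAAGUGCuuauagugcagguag
miR-223-3p: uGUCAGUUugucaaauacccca
miR-27a-3p: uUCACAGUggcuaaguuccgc

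The matching stretches of the F3 transcript are given in the same order (GENCODE release 29, GRCh38, minus strand), with the bases opposite the seed in capitals. They lie at chr1:94530194-94530223, chr1:94529545-94529574, chr1:94529538-94529567 and chr1:94530403-94530432.
F3 miR-19b-3p match: ccatggcacctTTTGCACataacatgcttt
F3 miR-20a-5p match: ctttacaatctGCACTTTaactgacttaag
F3 miR-223-3p match: atctgcactttAACTGACttaagtggcatt
F3 miR-27a-3p match: tgctatattgcACTGTGAccgagaactttt

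The miR-19b-3p and miR-20a-5p matches of F3 were followed by an A and so were 8mers, and the miR-20a-5p and miR-223-3p matches, at bases 897 and 904 of the 1235-base region, lie directly beside each other. Across the 9 genes there were 25 matches, of which 12 were 8mers, and SERPINE2 alone had none. TFPI and F2R had 5 each. A miR-27a-3p match was found in F3, TFPI, TFPI2, PROCR and F2RL2, while 18.4% of 11063 tested genes with such a region held one. Matches to miR-19b-3p were found in F3, TFPI and THBD (16.3% of tested genes) and to miR-20a-5p in F3, F2R, F2RL1 and F2RL2 (26.1%). A match to miR-223-3p was found in F3 alone (10.3%). Only TFPI held a match to miR-1-3p, the heart and skeletal muscle microRNA (14.0% of tested genes). No gene of the set held one to miR-133a-3p (8.78%), miR-208a-3p (2.06%), miR-499a-5p (12.2%) or miR-21-5p (10.5%). MicroRNA levels were not analysed here, and the genes with and without matches had the values below.

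**Figure D1:**
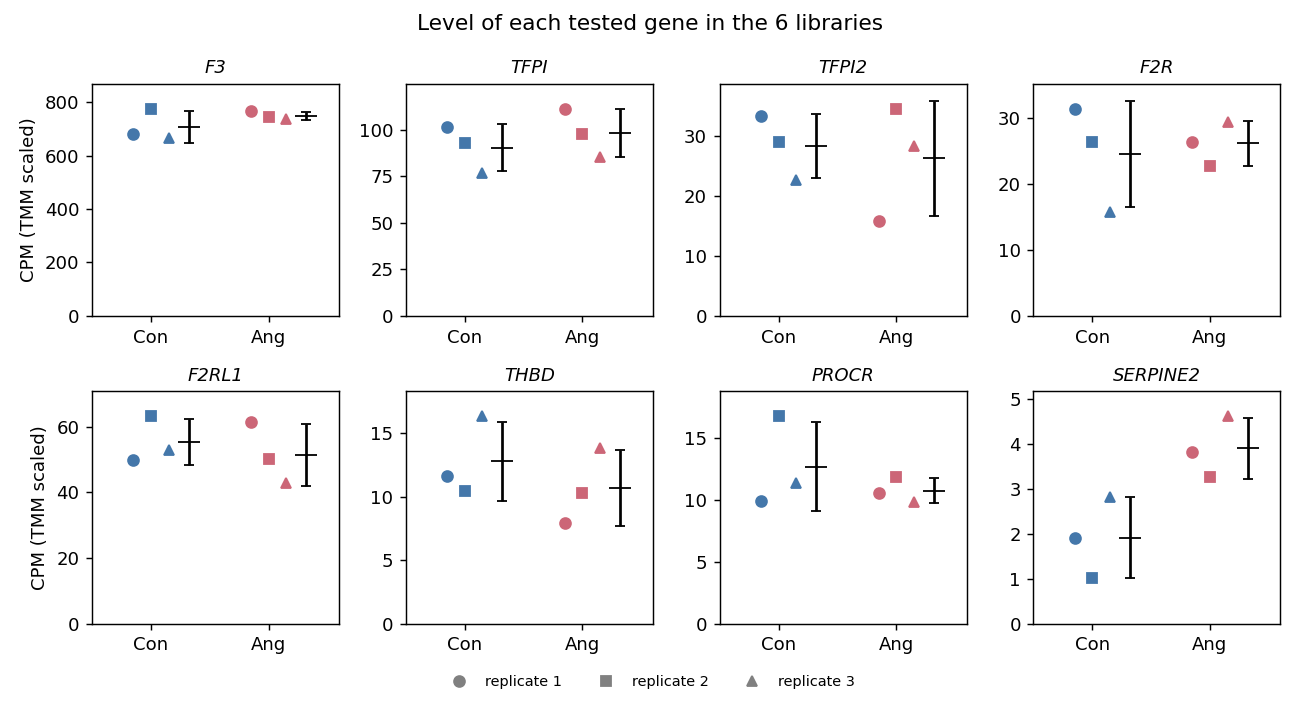
Level of each tested gene in CPM (vertical axes from 0) by library, with Con in blue, Ang in red, a marker shape per replicate number and the mean ± SD in black. F3 lies between 667 and 776 CPM in all libraries, and in SERPINE2 alone do the 3 Ang libraries all lie above the 3 Con libraries.

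The tissue factor pathway inhibitors were lower than F3 and did not differ between groups past the threshold. TFPI, the Kunitz-type inhibitor of factor Xa and of the tissue factor-VIIa complex, lies on chromosome 2 (187464230 to 187565760, minus strand). Levels were 102, 93.1 and 76.7 CPM for Con against 112, 97.6 and 85.5 CPM for Ang, with overlapping groups. The log2 fold change was 0.11 ± 0.18 (-0.24 to 0.47). Per kilobase of the longest coding transcript, F3 was 11.4 to 14.8 times as high as TFPI in the 6 libraries. TFPI2, a related inhibitor that acts mainly on plasmin and matrix-degrading proteases, lies on chromosome 7 (93885396 to 93890991, minus strand). It had 33.4, 28.9 and 22.6 CPM across the Con libraries and 15.8, 34.5 and 28.3 CPM across Ang. Ang replicate 1 was the lowest and Ang replicate 2 the highest of all libraries, a 2.18-fold range. Its log2 fold change was -0.11 ± 0.26 (-0.62 to 0.40) and turned to 0.14 without Ang replicate 1 and to 0.02 without Con replicate 1.

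Among the receptors, F2RL1 was the highest. The 3 receptor genes lie within 220 kb of each other on chromosome 5 (76615482 to 76835315). F2RL1 encodes PAR2, which is cut by trypsin-like proteases and by the tissue factor-VIIa complex rather than by thrombin. Its levels were 49.8, 63.2 and 52.8 CPM across the Con libraries and 61.3, 50.2 and 42.8 CPM across Ang. F2R, which encodes PAR1, the main thrombin receptor, had 31.5, 26.4 and 15.7 CPM across the Con libraries and 26.4, 22.7 and 29.5 CPM across Ang. Both groups overlapped for each gene. Log2 fold changes were -0.11 ± 0.21 (-0.51 to 0.30) for F2RL1 and 0.08 ± 0.26 (-0.44 to 0.60) for F2R. Both changed sign when single libraries were left out, F2RL1 to 0.01 without Con replicate 2 or Ang replicate 3, and F2R to -0.15 without Con replicate 3 and to -0.01 without Ang replicate 3. Per kilobase of exon F2RL1 was 1.99 to 4.62 times as high as F2R, above it in all 6 libraries.

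F2RL2, the gene of PAR3, had 1 count in Con replicate 2 and 0 in the other 5 libraries. The limit given above, for a count of 0, holds for those 5 libraries only, and no fold change is given. IQGAP2, a scaffold protein gene whose exons cover 2.54% of the F2RL2 exon bases on the other strand, had 10 to 47 counts per library.

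The genes of the thrombomodulin and protein C branch were low. THBD, a gene of a single exon on chromosome 20 (23045633 to 23049741, minus strand), had 11.6, 10.5 and 16.4 CPM across the Con libraries and 7.92, 10.3 and 13.9 CPM across Ang. PROCR, also on chromosome 20 (35172073 to 35216240, plus strand), had 9.93, 16.7 and 11.3 CPM across the Con libraries and 10.6, 11.9 and 9.82 CPM across Ang. Con replicate 2 alone was high for PROCR, and the groups overlapped for both genes. The log2 fold changes were equal to 2 decimals, at -0.24 ± 0.36, with intervals of -0.96 to 0.47 for THBD and -0.95 to 0.46 for PROCR. Without Con replicate 2, PROCR had a log2 fold change of 0.02.

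SERPINE2 was the lowest tested gene of the set and the only one whose groups did not overlap. It passed the low-count filter, 2.65 CPM in at least 3 libraries, through all 3 Ang libraries and 1 Con library, so the filter favoured a gene high in Ang and the separation is no support for a direction. It encodes protease nexin-1, a cell-surface inhibitor of thrombin and plasminogen activators, on chromosome 2 (223975112 to 224039319, minus strand). Its counts were 9, 6 and 9 in Con and 13, 13 and 16 in Ang, or 1.90, 1.01 and 2.83 CPM against 3.81, 3.28 and 4.62 CPM. The log2 fold change was 1.07 ± 0.75 with an interval of -0.41 to 2.54, an unadjusted p of 0.156 and an adjusted p of 0.999 by the edgeR quasi-likelihood test. The depth-scaled ratio of the summed counts, 42 in Ang over 24 in Con, was 2.23 with an exact interval of 1.32 to 3.86 that covers counting error only. The log2 fold change was 0.73 without Con replicate 2, where SERPINE2 was lowest, and at most 1.41 when any other library was left out. At 2.91 CPM on average, only 3.61% of tested genes lay lower.

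Counting all 8 tested genes, edgeR called 0 at an adjusted p under 0.05, and 0% of the 14547 genes were called. At an unadjusted p under 0.05 there were 0 of the 8 and 3.4% of all genes, and DESeq2 and limma-voom also called 0 of the 8, with 0 at an unadjusted p under 0.05. All 3 Ang libraries lay above all 3 Con libraries in 1 of 8 genes, SERPINE2, with the limit of the filter given above, against 3.62% of all tested genes, and below them in 0 of 8 against 4.54%. Log2 fold changes were positive for 4 and negative for 4 genes, with a median of -0.01, as over all tested genes (49.2% positive, median -0.01). Without Con replicate 2, 0.269% of genes were called and again 0 of the 8, with a median of 0.07 (-0.10 without Con replicate 3), and F3 had the smallest p of the set (0.133 unadjusted, 0.621 adjusted, by edgeR). For 7 of the 8 genes, or 87.5%, the 95% interval lay within 2-fold in both directions, against 64.2% of all tested genes. SERPINE2 was the exception.

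**Figure D2:**
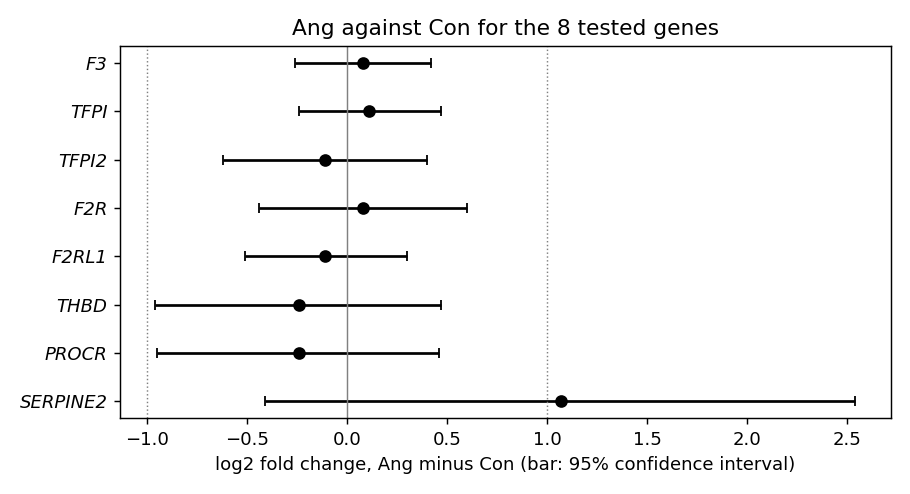
Log2 fold change, Ang minus Con, of the 8 tested genes (points) with 95% confidence intervals (bars), the solid line marking no difference and the dotted lines a 2-fold difference. All 8 intervals include 0, and that of SERPINE2, -0.41 to 2.54, is the widest.

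The genes also differed in how much they varied between libraries. Over all 6 libraries the coefficient of variation of CPM was 6.12% for F3, 13% for TFPI and 14.4% for F2RL1. It was 22.0% to 25.7% for F2R, PROCR, THBD and TFPI2 and 44.8% for SERPINE2. Counting alone would give 1.88% for F3, 5.26% for TFPI, 7.0% for F2RL1, 10.2% to 15.1% for the next 4 genes and 31.8% for SERPINE2; the difference between the observed and the counting spread was not tested. F3, PROCR and F2RL1 were each highest in Con replicate 2, the library with the lowest ratio of noncoding to coding counts, while SERPINE2 was lowest there. TFPI, F2R and F3 were lowest in Con replicate 3, the library with the highest ratio. THBD, however, was highest in Con replicate 3, and THBD and TFPI2 were lowest in Ang replicate 1. The part of the ratio of noncoding to coding counts in these levels was not tested.

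Per length, F3 stood above all other genes of the set in every library. The order per kilobase of all annotated exons was F3 (253 ± 15.5 CPM per kb, SD over 6 libraries), F2RL1 (18.0 ± 2.60), TFPI2 (10.2 ± 2.61), TFPI (8.05 ± 1.04), PROCR (6.90 ± 1.53), F2R (6.24 ± 1.38), THBD (2.86 ± 0.722), SERPINE2 (0.327 ± 0.147) and F2RL2. Neighbours from TFPI2 to F2R overlapped in their range over the libraries and so did F2R and THBD, whereas F2RL1 (14.5 to 21.4) lay above TFPI2 (5.91 to 12.9). The place of TFPI depends on the length used, since its exons sum to 11.7 kb while its longest coding transcript has 3885 bases. With coding transcripts TFPI had 24.3 CPM per kb (19.8 to 28.7) and overlapped F2RL1 (14.7 to 21.7). SERPINE2 likewise had 1.13 CPM per kb on that scale and remained between THBD and F2RL2.

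**Figure D3:**
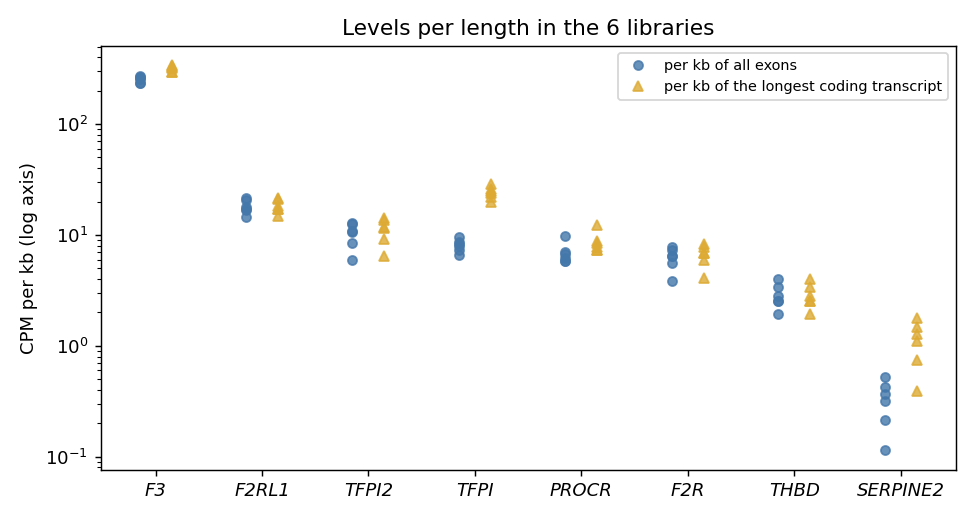
CPM per kilobase (log axis) of the 8 tested genes in each of the 6 libraries, by the length of all annotated exons (blue circles) or of the longest coding transcript (yellow triangles). F3 lies at 232 or above by both lengths, and TFPI moves from 8.05 to 24.3 on average.

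Annotated antisense gene models share a few exon bases with 4 of these genes, and those of TFPI, PROCR and F2R held more counts per base than the gene they overlap. That of TFPI2, AC002076.1, shares 79 bases and did not, at 0.0516 times the counts per base. The protein-coding gene GNGT1, also on the opposite strand, shares 44 bases with TFPI2 and had 2.83 times its counts per base. AC007319.1 shares 118 bases with TFPI, 1.01% of the exon bases of TFPI, and had 19.1 times its counts per base. AL356652.1 shares 218 bases with PROCR, 12.9% of its exon bases, and had 28.7 times the counts per base. AC025188.1 shares 39 bases with F2R and had 6.14 times the counts per base. In Con replicate 2 the antisense ratios for TFPI, PROCR and F2R were 16.1, 17.3 and 4.43, the lowest of all libraries for PROCR and F2R. For TFPI the 15.6 of Ang replicate 1 and the 15.2 of Ang replicate 2 were lower. The antisense genes had log2 fold changes of -0.28 ± 0.17 (AC007319.1), 0.13 ± 0.18 (AL356652.1) and -0.23 ± 0.27 (AC025188.1). None passed the threshold of the edgeR test. AC007319.1 had 295, 188 and 274 CPM across the Con libraries and 218, 186 and 220 CPM across Ang, and without Con replicate 2 it had -0.45 ± 0.12 at an adjusted p of 0.0644 by edgeR, while TFPI had a log2 fold change of 0.13 in the same fit. Whether reads of one strand were counted for the other gene was not tested.

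**Figure D4:**
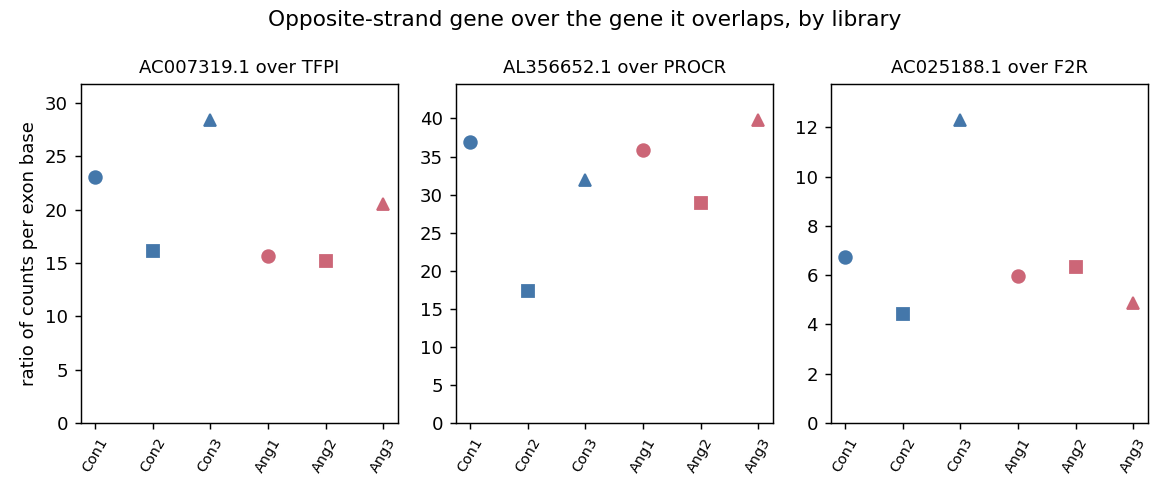
Ratio of counts per exon base of the antisense gene over the gene it overlaps (vertical axes from 0) in each library, for TFPI, PROCR and F2R, with Con in blue and Ang in red. All ratios lie above 4, and Con replicate 2 is the lowest library for PROCR at 17.3 and for F2R at 4.43.

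The rest of the pathway was described by lists of known genes, for which each value in brackets is a log2 fold change, Ang minus Con, with its SE. Of 20 plasma clotting factor and platelet receptor genes, 8 had a row and 3 were tested, 1 positive and 2 negative: F8 (a log2 fold change of -0.22 ± 0.26), the platelet receptor gene GP1BA (-0.16 ± 0.32) and the platelet integrin gene ITGA2B (0.89 ± 0.75). ITGA2B reached the cut of the filter in 1 Con library and 2 Ang libraries. Its log2 fold change ran from 0.39 to 1.64 when 1 library was left out. F10, the gene of the factor that tissue factor activates, was seen 11 times in all Con and 14 times in all Ang libraries. Among anticoagulants 5 of 11 were tested, 3 positive and 2 negative, with a median of 0.14 that became 0.36 without Con replicate 2 and 0.03 without Con replicate 3. ANXA5, which shields phosphatidylserine, was the most abundant per kilobase (0.14 ± 0.17). PROS1, the gene of protein S, a cofactor of activated protein C and of TFPI, had 11.2, 8.96 and 8.18 CPM across the Con libraries and 10.3, 15.9 and 15.9 CPM across Ang (0.56 ± 0.36). GAS6, a relative of protein S, had a log2 fold change of 0.34 ± 0.20. PROZ, the protein Z gene, had 48 counts in Con against 14 in Ang (-1.43 ± 0.81, adjusted p of 0.999 by edgeR). Its groups did not overlap, as for 4.54% of tested genes in this direction, but it passed the filter through the 3 Con libraries alone, and without Con replicate 2 it was not tested.

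Among plasminogen activators, their receptors and their inhibitors, 6 of 7 tested genes were positive and 1 was negative, with a median of 0.11 and 0 called. This lean was not particular to the list: 7 of 8 tested MDA-MB-231 markers were positive, with a median of 0.19. Over all tested genes 49.2% were positive. PLAU, the urokinase gene, had 0.19 ± 0.17, and opposite-strand exons cover 31.1% of its exon sequence. PLAUR, the urokinase receptor gene, had 0.29 ± 0.24, and S100A10, a plasminogen receptor subunit gene, 0.19 ± 0.17. Without Con replicate 2 the values were 0.39 for PLAU, 0.68 for PLAUR and 0.34 for S100A10, with adjusted p of 0.138, 0.239 and 0.219 by edgeR and a list median of 0.34. Without Con replicate 3 the median was -0.01 and PLAU had 0.06, and without Con replicate 1 PLAUR had 0.03 and S100A10 0.11. Genes of tissue factor decryption and of the vitamin K cycle had 6 positive and 3 negative values of 9 tested, with a median of 0.05 and 0 called. P4HB, the protein disulfide isomerase gene linked to tissue factor activation, had 0.07 ± 0.17. SMPD1, the acid sphingomyelinase gene, had 0.56 ± 0.40. GGCX, the enzyme gene for gamma-carboxylation of clotting factors, had -0.10 ± 0.17, and VKORC1L1, a vitamin K reductase gene, -0.11 ± 0.25.

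Proteases that can cut PARs were low and had positive values throughout, with 0 called. Of 14 listed genes 11 had a row and 5 were tested, with a median of 0.61 that became 1.47 without Con replicate 2. MMP1, a collagenase that also cuts PAR1, had 1.27, 2.54 and 2.20 CPM across the Con libraries and 4.40, 2.52 and 9.24 CPM across Ang. The groups overlapped through Con replicate 2 and Ang replicate 2. Its log2 fold change was 1.41 ± 0.69, with an unadjusted p of 0.0416 and an adjusted p of 0.999 by edgeR, and was 0.77 without Ang replicate 3, the highest library. CTSS, the cathepsin S gene, had 0.54 ± 0.36, and PRSS3, the mesotrypsin gene, 0.83 ± 0.72 from 32 counts in Con and 43 in Ang. Leaving out 1 library at a time gave 0.16 to 0.81 for CTSS and 0.19 to 1.47 for PRSS3. The genes that did not pass the filter included ST14, the matriptase gene, with 11 and 19 counts, and HPN, the hepsin gene, with 6 and 0. Passing the filter at so low a level favours genes that are high in 1 group, so the count is no support for a direction.

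Downstream of the receptors, the G proteins and effectors had 10 positive and 8 negative values of 18 tested, with a median of 0.05 and 0 called. RHOA, the small GTPase gene through which PARs act on the cytoskeleton, averaged 200 ± 30.3 CPM for Con and 221 ± 23.4 CPM for Ang. GNAI3, an inhibitory G protein subunit gene, was 1 of 18 genes with all Ang libraries above Con, beside 3.62% of all tested genes, at 57.9, 54.1 and 53.8 against 76.9, 72.6 and 61.8 CPM (0.35 ± 0.20). PRKCA, a protein kinase C gene, had 0.31 ± 0.24 and GNAQ, which couples PAR1 to phospholipase C, -0.30 ± 0.27.

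Genes known to respond to thrombin had 7 positive and 6 negative values of 13 tested, with a median of 0.11 and 0 called. CCN1, a matricellular gene, was the most abundant per kilobase of all annotated exons, though not per kilobase of the longest coding transcript, where the chemokine gene CXCL8 was higher (384 against 324 CPM per kb). CCN1 averaged 714 ± 132 CPM for Con and 772 ± 8.36 CPM for Ang. All Ang libraries lay below Con in 2 of the 13, CXCL1, a chemokine gene, and SPHK1, the sphingosine kinase gene, and in 4.54% of all tested genes. SPHK1 passed the filter through 3 Con libraries and 1 Ang library. CXCL1 had 50.1, 51.6 and 56.3 CPM across the Con libraries and 42.8, 34.5 and 40.4 CPM across Ang (-0.42 ± 0.22, unadjusted p 0.0517 and adjusted p 0.999 by edgeR). SPHK1 was counted 55 times in Con and 15 times in Ang (-1.50 ± 0.78), and IL6, a cytokine gene, had -0.28 ± 0.19.

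Of the transcription factors known at the F3 promoter shown above, 5 were positive and 6 negative of 11 tested, with a median of -0.003 (0.16 without Con replicate 2) and 0 called. HIF1A, the hypoxia factor gene, was the most abundant per kilobase, with 564, 493 and 665 CPM in Con and 481, 455 and 445 CPM in Ang, so that all Ang libraries lay below Con (-0.32 ± 0.17, adjusted p of 0.999 by edgeR), as in 4.54% of all tested genes and in 1 of these 11. Without Con replicate 2 HIF1A had -0.41 ± 0.11 at an adjusted p of 0.0526 by edgeR. That value is 1 end of its leave-one-out range, -0.41 to -0.21. FOSL1, an AP-1 subunit gene, had 0.18 ± 0.17, and REL, an NF-kappaB subunit gene that shares 43.3% of its exon bases with another gene, -0.90 ± 0.68 from 61 counts in Con and 28 in Ang. REL passed the filter through 3 Con libraries and 1 Ang library. Leaving out 1 library at a time gave -1.55 to -0.44 for REL. EGR1 had 75 counts in Con and 47 in Ang, and SP1 had a log2 fold change of 0.02 ± 0.23.

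**Figure D5:**
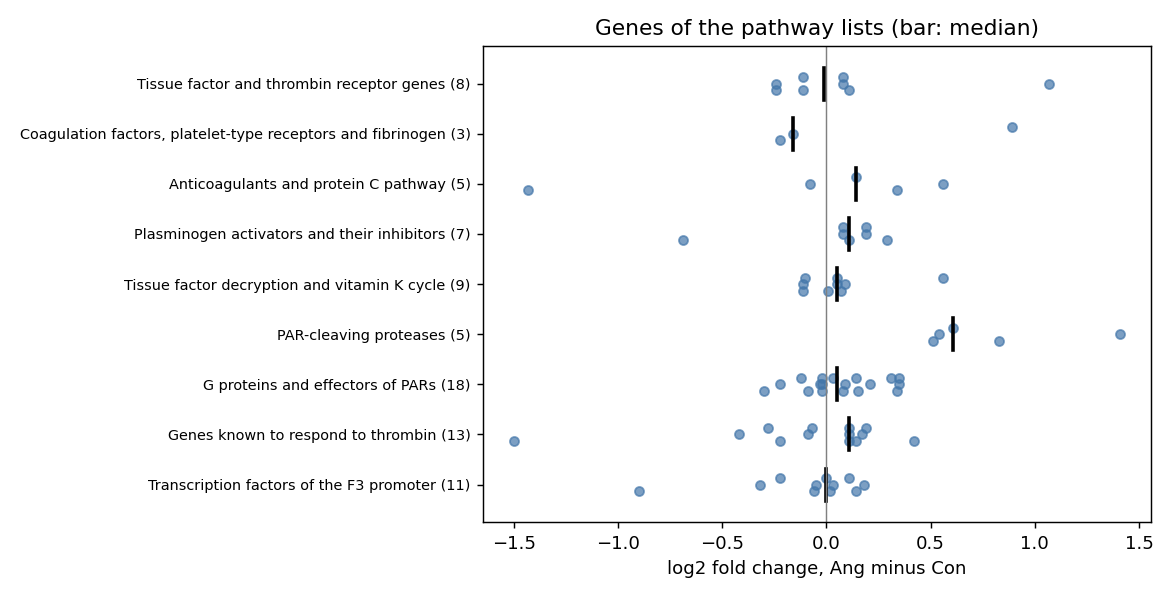
Log2 fold change, Ang minus Con, of each tested gene (points) in the set and in 8 pathway lists, with the list median as a black bar and the number of tested genes in brackets. The medians lie between -0.16 and 0.14 except that of the PAR-cleaving proteases, at 0.61, and 0 of the genes shown were called.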

How the data were processed

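The authors deposited raw read counts per Ensembl gene, one table a library. HTSeq 0.9.1, DESeq 1.39.0 and GRCh38 were used, per the submitters' processing notes. Aligner, annotation release and strand setting: not given in the sources used here. Per the labels' protocols, libraries were poly-A selected and no step marks strand. Of 28979 IDs, 28918 matched a symbol and 28192 matched GENCODE release 29. No row named no gene. Counts were tested with edgeR 4.0.16 in R 4.3.3 (filterByExpr, TMM scaling, robust quasi-likelihood test, Ang against Con, Benjamini-Hochberg over 14547 genes, threshold 0.05). CPM values are TMM scaled; errors of log2 fold changes are SE. No 2 libraries held identical values. On simulated counts of these 14547 genes, with 200 changed genes in each of 5 runs, 50.4% of 2-fold and 80.6% of 4-fold changes were called, and 4.66% of calls were false. Pairs of opposite-strand genes (bedtools 2.31.1) needed at least 90% of the noncoding exon bases under 1 coding gene with 300 or more counts, and 0.5 was added to each count. All 9 genes were named, and of each list the most abundant per kilobase and up to 3 with the smallest p, except 1 that is not reported here; F10, ST14, HPN, EGR1, SP1 and CXCL8 were added after their values were seen. The genes, lists and microRNAs were chosen with earlier results of these data known. Alternatives were RLE scaling, other filters, a replicate block, DESeq2 1.42.0, limma-voom (limma 3.58.1) and leaving out each library.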

Additional observations from a re-analysis of the deposited data

How the results depend on the processing

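The number of the 8 genes called stayed at 0 under every alternative run. Genes called were 0 except when 1 library was left out, which gave 0 to 40: leaving out Con replicate 2 gave 40 and leaving out Con replicate 1 gave 1, and the cause was not tested. Over 96 alternative values of the 8 genes, 89 kept their sign and side of the threshold and 7 changed sign, all of them without a call and when 1 library was left out. The leave-one-out ranges were -0.36 to 0.14 for TFPI2, -0.40 to 0.02 for PROCR, -0.15 to 0.28 for F2R and -0.26 to 0.01 for F2RL1, and F3 (0.03 to 0.15), TFPI (0.01 to 0.20), THBD (-0.47 to -0.05) and SERPINE2 (0.73 to 1.41) kept their sign. Among other named genes the sign changed for GP1BA (-0.40 to 0.12), F8 (-0.40 to 0.06), P4HB (-0.05 to 0.24), GGCX (-0.22 to 0.03) and VKORC1L1 (-0.24 to 0.08). The replicate block called 0 genes, and so 0 of the 8. Deviations from the group means correlated at 0.037, 0.0675 and 0.0356 between same-numbered libraries, each the highest for its library. All were small, and whether the libraries are paired was not tested. Genes at an unadjusted p under 0.05 numbered 494, and 827 with no filter on low counts and 1633 without Con replicate 2, while none of the 8 genes was among them in those fits. In simulated data 50.4% of 2-fold changes were called over all levels, and the share at a level as low as that of SERPINE2 was not computed.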
